A study of Mus musculus with 12 samples.

Results

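A set of 6 genes of the pituitary thyroid axis was followed in whole pituitaries of pregnant and non-pregnant mice: Tshb, Trhr, Dio2, Dio1, Thra and Thrb. Every probe that the platform annotation pairs with 1 of these 6 symbols was taken, which gave 8 of the 45281 probes on the array. A probe was kept for testing when its detection p-value, the scanner's test of the probe against negative control beads, was under 0.05 on at least 4 of the 12 arrays. This left 3 probes for 3 of the genes, Tshb, Trhr and Dio2, among 18626 probes for 10802 named genes. None of the 3 passed the test for a difference between pregnant and non-pregnant pituitaries, which 3.07% of all named genes passed. Trhr lay 1.46-fold higher and Dio2 1.38-fold lower in pregnant pituitaries, both with 95% intervals that left out 0 before adjustment over all probes, and Tshb differed by less than the spread between animals.

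Thyrotrophs are the pituitary cells that secrete thyroid-stimulating hormone (TSH), which drives the thyroid gland to make thyroxine. TSH pairs a subunit of its own, encoded by Tshb, with the alpha subunit that it shares with the gonadotrophins. Hypothalamic thyrotropin-releasing hormone (TRH) acts through the receptor encoded by Trhr to raise the output of TSH, and thyroid hormone lowers it again through nuclear receptors encoded by Thra and Thrb. The deiodinases encoded by Dio2 and Dio1 remove an iodine from thyroxine to give the active hormone triiodothyronine, and the first of them does so inside the pituitary.

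The pregnant group held 8 C57BL/6J females mated to males of that strain and killed at e15.5, embryonic day counted from the plug, and the non-pregnant group held 4 virgin C57BL/6J females. All females were 8 weeks old when they were allocated to a group and came from 4 litters, but which litter gave which animal is not known here. Each whole pituitary gave total RNA for 1 array. No treatment or genetic change was applied to either group, so the comparison asks what differs in the gland at this stage of gestation. In such bulk samples, fewer cells of a type and less RNA per cell cannot be told apart.

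Array medians, which lie near background because most probes were undetected, differed between the groups before normalisation. The median raw intensity of an array was between 151.1 and 179.6 in pregnant pituitaries and between 144.8 and 147.6 in non-pregnant pituitaries, without overlap, whereas 38.0% to 40.6% of probes were detected on pregnant arrays and 39.3% to 41.0% on non-pregnant arrays. Values below are quantile-normalised log2 intensities unless called raw, and each change is the pregnant mean minus the non-pregnant mean. The red cell markers Hba-a1, Hbb-bs, Hbb-bt, Alas2 and Slc4a1 were all called higher in pregnancy (5 of 5), and their summed intensity was 87363 to 131746 in pregnant pituitaries, against 33262 to 42331 in non-pregnant pituitaries. Their part in the values of the thyroid axis genes was not tested. Posterior lobe markers did not separate the groups, with 0 of 4 measured markers called and sums of 632 to 1013 in pregnant and 708 to 1163 in non-pregnant pituitaries, and Gfap and Col25a1 were detected on none of the arrays. Stem and folliculostellate markers had 0 of 3 called, with sums of 1859 to 2334 in pregnant and 2171 to 3125 in non-pregnant pituitaries, and S100b was detected on none. All 3 changes were negative, with a median of -0.37 against -0.01 over all measured genes. Of the 3, 2 had an unadjusted p under 0.05 (limma), where 8.68% of all kept probes did so in the lower direction.

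The stretches just upstream of the start sites of Tshb and Dio2 are shown because these are the measured hormone and deiodinase genes with a window in the RefSeq table of GRCm38.p6, which holds windows for 4 of the 6 genes. Each runs from base -120 to base -1 before the start, 5′ to 3′ on the strand of the gene. Tshb lies at chr3:102782715-102782834 on the minus strand, with the GATA hexamer AGATAA and the TATA hexamer TATAAA in capitals. Dio2 lies at chr12:90739039-90739158 on the minus strand, with the cyclic AMP response element TGACGTCA and TATAAA in capitals.
Tshb: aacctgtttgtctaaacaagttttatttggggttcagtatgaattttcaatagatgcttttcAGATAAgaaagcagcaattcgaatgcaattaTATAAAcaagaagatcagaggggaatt
Dio2: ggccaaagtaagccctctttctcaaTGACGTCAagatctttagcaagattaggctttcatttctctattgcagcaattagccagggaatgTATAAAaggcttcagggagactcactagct

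In the whole 300-base windows, TATAAA stood at -248 to -243, at -27 to -22 and at 12 to 17 of Tshb and at -30 to -25 of Dio2, counting the start base as 1. TGACGTCA stood at -95 to -88 of Dio2, and AGATAA at -58 to -53 of Tshb. Among 32851 RefSeq windows of 300 bases, TATAAA occurred on the gene strand in 8.32%, whereas TGACGTCA occurred on either strand in 1.79% and AGATAA in 11.2%. The hexamers AGGTCA and GGGTCA, which nuclear receptors recognise, occurred on either strand in 16.3% and 13.7% of windows. GGGTCA was found once in the Tshb window, at 31 to 36, and AGGTCA once in 1 of the windows of Thrb, at -184 to -179. These matches describe the letters and not occupancy, which was not measured here.

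The probes of the 6 genes lay at very different heights above background, and only 3 were measurable. The Tshb probe gave raw intensities of 18909.7 to 32107.2, while the Trhr probe gave 297.7 to 544.7 and the brighter Dio2 probe 352.0 to 656.1. The remaining 5 probes stayed between 126.1 and 209.0 raw units, near the array medians. Each probe has its own binding strength, so these heights do not rank the transcripts against each other.

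**Figure D1:**
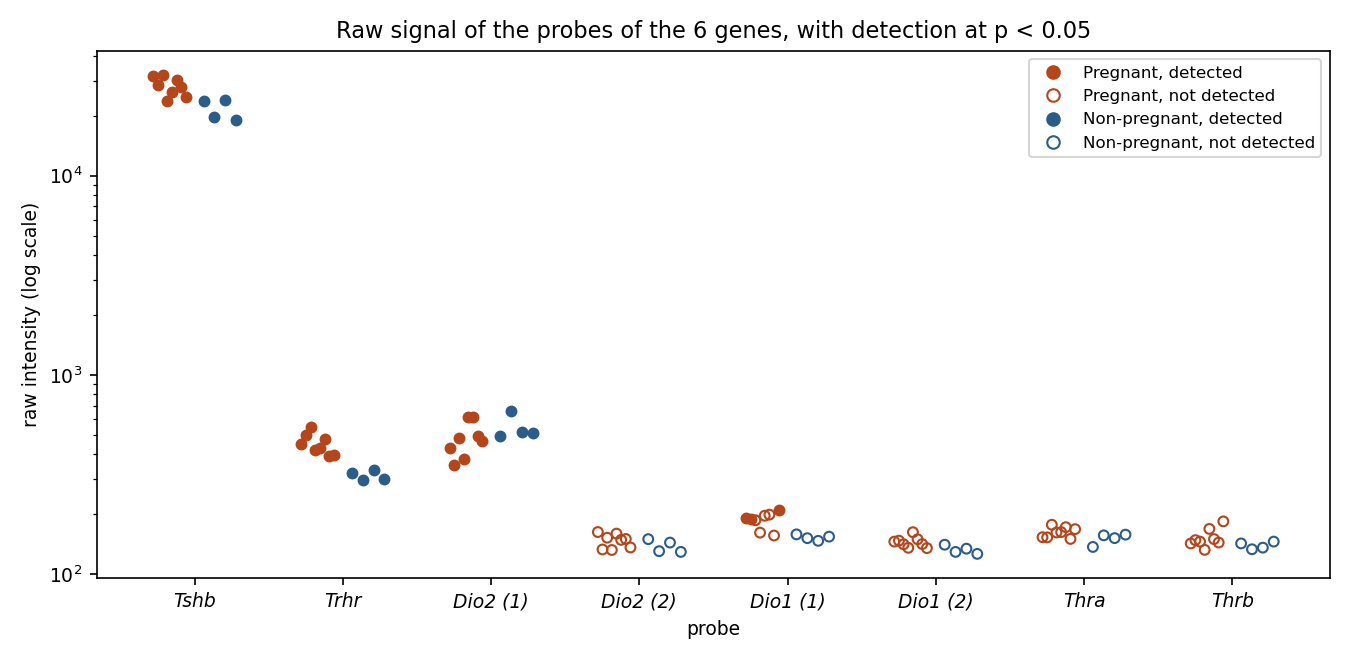
Raw intensity (log axis) of the 8 probes of the 6 genes on each array, with pregnant arrays left of non-pregnant arrays and filled circles where the probe was detected. The probes of Tshb and Trhr and the first of Dio2 are filled on all 12 arrays, and the first Dio1 probe is filled on 3 pregnant arrays.

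Tshb encodes the subunit that makes TSH specific, and it was among the brightest signals on the array, at a mean of 54.1% of the brightest probe. Its log2 intensity in pregnant pituitaries was 14.85, 14.74, 14.87, 14.58, 14.44, 14.80, 14.74 and 14.53 for replicates 1 to 8, against 14.60, 14.55, 14.74 and 14.41 for replicates 1 to 4 of non-pregnant pituitaries. Only 4 of 8 pregnant values exceeded every non-pregnant value, and the groups overlapped over most of the non-pregnant range. The means were 14.69 ± 0.16 in pregnant (SD, n = 8) and 14.58 ± 0.13 in non-pregnant pituitaries (SD, n = 4), a change of 0.12 ± 0.11 (SE) that was not called (limma, adjusted p = 0.619). The 95% interval ran from -0.11 to 0.34, which corresponds to ratios of pregnant over non-pregnant between 0.929 and 1.27, and a two-sided exact permutation test over the arrays gave p = 0.234. Before normalisation the raw means were 28167 ± 3100 in pregnant and 21627 ± 2658 in non-pregnant pituitaries (SD), a ratio of 1.30. Every pregnant array also had a higher median, but the medians lie near background. Other bright hormone probes differed in direction. Raw Gh was 34256.7 to 42801 in pregnant and 41748.7 to 48392.2 in non-pregnant pituitaries, and raw Pomc 29528.1 to 41537.8 and 29821.9 to 31328. What part array brightness had in the Tshb ratio was not tested. How far a probe this close to the top of the scale compresses a change was not tested.

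Trhr encodes the receptor through which TRH acts on thyrotrophs and, in the pituitary, on lactotrophs. Its log2 intensity was 8.24, 8.62, 8.71, 8.32, 7.97, 8.26, 8.09 and 7.78 in pregnant replicates 1 to 8, against 7.85, 7.58, 7.78 and 7.61 in non-pregnant replicates 1 to 4. All pregnant values but that of replicate 8 lay above every non-pregnant value, so 7 of 8 pregnant animals were outside the non-pregnant range. The means were 8.25 ± 0.31 in pregnant (SD, n = 8) and 7.70 ± 0.13 in non-pregnant pituitaries (SD, n = 4). The change of 0.54 ± 0.15 (SE), or 1.46-fold, had a 95% interval of 0.22 to 0.87 and an unadjusted p of 0.00287, and it missed the threshold after adjustment (limma, adjusted p = 0.0758). A two-sided exact permutation test of this probe alone gave p = 0.0141. Without pregnant replicate 8 the change was 0.61 and the probe was called (limma, adjusted p = 0.0388). Raw intensities were 389.7 to 544.7 in pregnant and 297.7 to 331.6 in non-pregnant pituitaries, a ratio of means of 1.44 with no overlap. The raw median was also higher on every pregnant array, and its part in this raw separation was not tested.

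Dio2 encodes the deiodinase that makes triiodothyronine within the gland, and its values lay on the other side of 0. Its measurable probe read 8.14, 7.89, 8.48, 8.11, 8.72, 8.74, 8.58 and 8.14 in pregnant replicates 1 to 8, against 8.70, 9.15, 8.68 and 8.73 in non-pregnant replicates 1 to 4. The values of pregnant replicates 5 and 6 reached the non-pregnant range, and the other 6 lay below every non-pregnant value. The means were 8.35 ± 0.32 in pregnant (SD, n = 8) and 8.82 ± 0.23 in non-pregnant pituitaries (SD, n = 4), a change of -0.47 ± 0.16 (SE), or 1.38-fold lower. The 95% interval was -0.81 to -0.12 and the unadjusted p was 0.0120, but the probe was not called (limma, adjusted p = 0.152). A two-sided exact permutation test of this probe alone gave p = 0.0323. Non-pregnant replicate 2 stood above the other non-pregnant animals, and without it the change was -0.35 (limma, adjusted p = 0.367). In raw intensity the ranges overlapped, at 352.0 to 614.4 in pregnant and 490.5 to 656.1 in non-pregnant pituitaries. A second Dio2 probe was detected on 0 of 12 arrays, with a lowest detection p-value of 0.116, so agreement between probes could not be assessed for Dio2 or for any of the other genes.

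**Figure D2:**
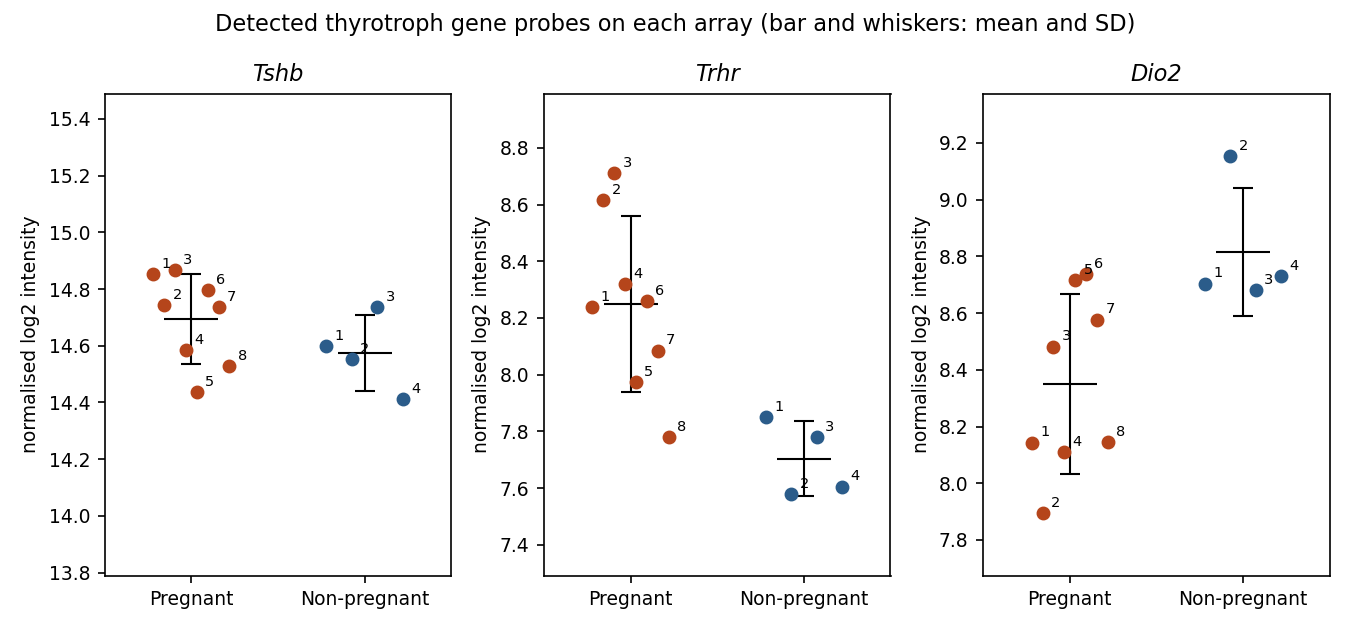
Normalised log2 intensity of the Tshb, Trhr and Dio2 probes on each array, numbered by replicate, with pregnant animals left of non-pregnant animals, the mean as a bar and the SD as whiskers (n = 8 and 4). All panels span the same log2 range, and 7 of 8 pregnant animals lie above the non-pregnant animals for Trhr and 6 of 8 below them for Dio2.

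Across all named genes, 163 were called higher (1.51%) and 169 lower (1.56%) in pregnant pituitaries by the call rule (adjusted p under 0.05 with a log2 change of 0.32 or more either way), which is 3.07% in either direction. Of the measured genes of the set, 0 of 3 were called. At an unadjusted p under 0.05, 2 of 3 passed, against 17% of all kept probes, of which 8.28% were higher and 8.68% lower.

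Dio1, Thra and Thrb could not be compared. Dio1 encodes the deiodinase best known from liver and kidney, and its brighter probe was detected on 3 of 8 pregnant and 0 of 4 non-pregnant arrays, with detection p-values of 0.0321 to 0.171. Raw intensity of that probe was 155.9 to 209.0 in pregnant and 146.6 to 158.0 in non-pregnant pituitaries, close to the array medians in both groups. Its second probe was detected on none of the arrays. Thra and Thrb encode the thyroid hormone receptors, and Thrb gives the form known to mediate feedback on TSH. The 1 probe for each was detected on 0 of 12 arrays, with lowest detection p-values of 0.0823 for Thra and 0.0897 for Thrb, so neither receptor was measurable at this signal. Nr1d1, which is transcribed from the opposite strand across the end of Thra, was measured and changed by -0.13 without being called.

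Set against each other within an array, the normalised values of Trhr and Dio2 separated the groups without overlap, which neither did alone. The log2 intensity of Trhr minus that of Dio2 was 0.10, 0.72, 0.23, 0.21, -0.74, -0.48, -0.49 and -0.36 in pregnant replicates 1 to 8, against -0.85, -1.57, -0.90 and -1.12 in non-pregnant replicates 1 to 4. Every pregnant value lay above every non-pregnant value. The pregnant animals were themselves split, with replicates 1 to 4 at 0.10 to 0.72 and replicates 5 to 8 at -0.74 to -0.36. That split was wider than the gap between the groups, where the nearest values were -0.74 and -0.85. This difference was formed after its parts were known to lie higher and lower, so a gap between the groups was favoured by the choice. It is given as a description without a test, and how many other probe pairs separate the groups was not counted. Since it sets the levels of 2 different probes against each other, its 0 has no meaning and only its spread across arrays can be read.

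Within the 8 pregnant animals no pair of the 3 genes passed a two-sided exact permutation test of correlation. Trhr and Tshb had a Pearson r of 0.67 (exact permutation p = 0.0737, adjusted over 3 pairs 0.221) and a Spearman rho of 0.69 (exact permutation p = 0.0694, adjusted 0.208). Without replicates 5 and 8, the animals farthest from the Tshb median, r was 0.26 (exact permutation p = 0.642). Leaving these animals out also narrows the Tshb range, which tends to lower r, so it cannot show what the relation rested on. With any 1 array left out, r was 0.57 to 0.74. Dio2 and Tshb had an r of -0.05 (exact permutation p = 0.913, adjusted 0.913) and a rho of -0.07 (exact permutation p = 0.882, adjusted 0.882), and r was 0.32 without the same replicates (exact permutation p = 0.546). Dio2 and Trhr had an r of -0.23 (exact permutation p = 0.571, adjusted 0.856) and a rho of -0.36 (exact permutation p = 0.389, adjusted 0.584). Without replicates 3 and 8, the farthest from the Trhr median, that r was -0.80 (exact permutation p = 0.0444). These 3 p-values without a pair of animals were not adjusted.

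The direction of the 3 changes did not depend on the processing options tried. Over 11 settings that altered background correction, normalisation, filter, moderation, weighting or blocking, the change of Tshb was 0.04 to 0.21, that of Trhr 0.37 to 0.77 and that of Dio2 -0.66 to -0.35. The ends 0.77 for Trhr and -0.66 for Dio2 came from blocking by replicate number. That setting compares only replicates 1 to 4 of each group, so it also changes the set of animals. None of these settings led to a call, and adjusted p-values (limma) were 0.440 to 0.843 for Tshb, 0.0544 to 0.129 for Trhr and 0.114 to 0.256 for Dio2.

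**Figure D3:**
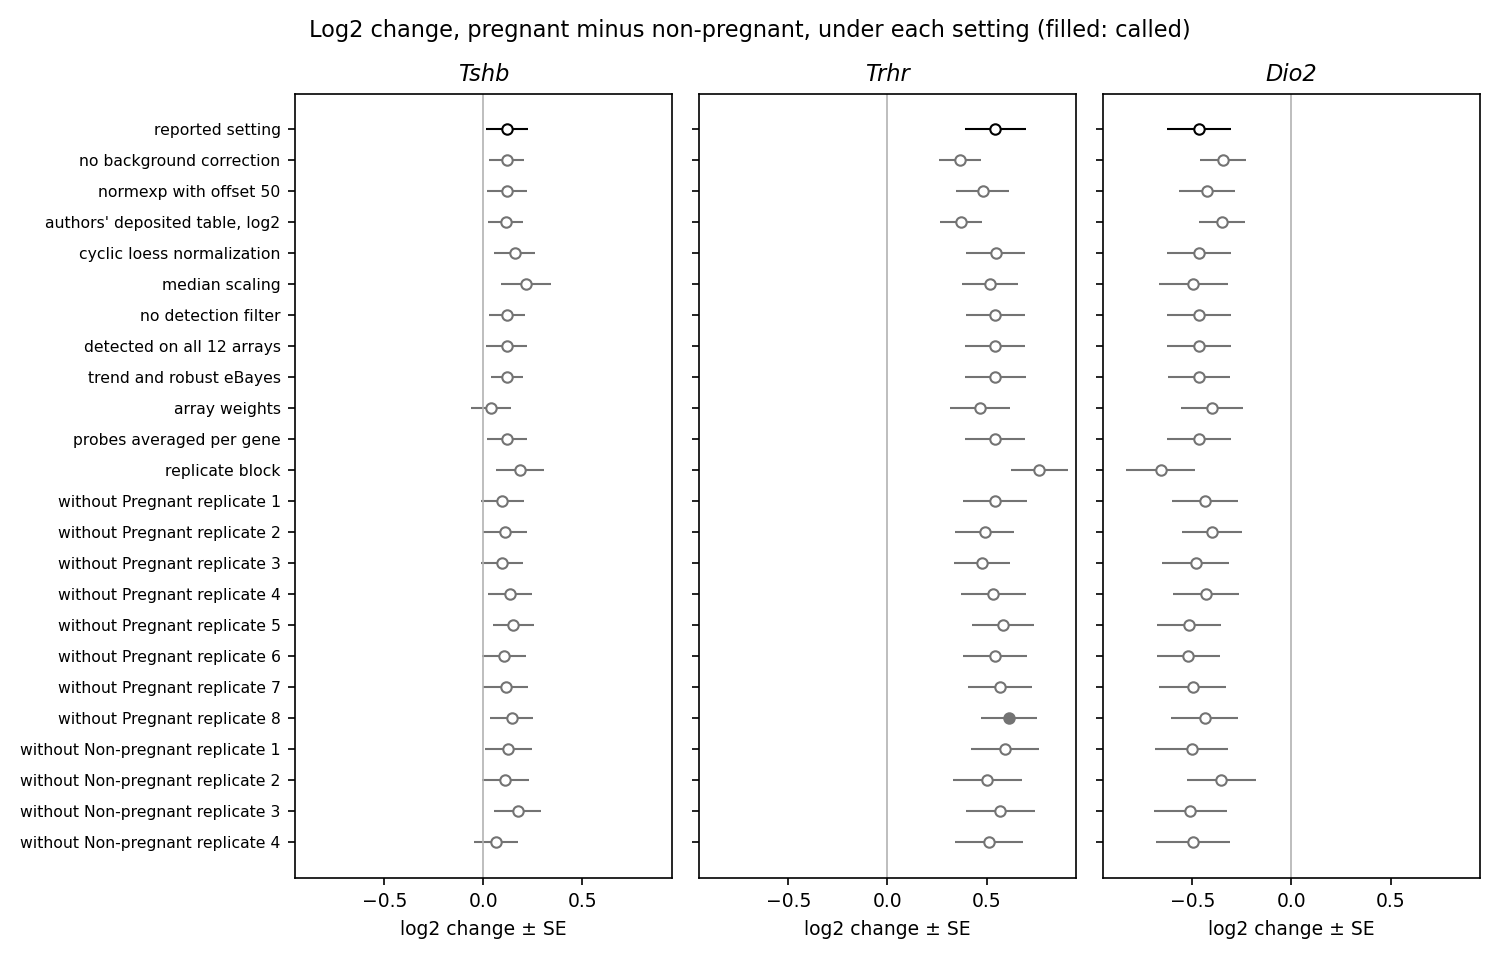
Log2 change (pregnant minus non-pregnant, ± SE) of Tshb, Trhr and Dio2 under the reported setting, each alternative and each array left out, with filled circles where the probe was called. Trhr without pregnant replicate 8 is the single filled circle, at 0.61, and no point crosses 0.

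The genes whose residual pattern was most like that of each measured gene were found from Pearson correlations over the 12 arrays after subtracting group means, as a description over arrays that share their normalisation. For Tshb they were Setd4 (r = 0.90), Mif4gd (0.89) and A830005F24Rik (0.86). For Trhr they were Ccdc106 (r = 0.93), Hif3a (0.92) and Fezf2 (0.91), and for Dio2 they were Larp7 (r = 0.90), Rufy1 (0.90) and A930017M01Rik (0.90). None of the 9 was itself called between the groups, and Hif3a had the largest change of them, at 0.66 ± 0.22 (SE, limma, adjusted p = 0.130). Each was picked for its high r among 10802 named genes over only 12 arrays, so high values were favoured by the choice. The r that chance alone would reach was not computed, and shared regulation was not tested.

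Among transcription factors and subunits that define thyrotrophs, 5 of 10 listed genes were measured, 1 was called lower and 0 higher in pregnant pituitaries. The median change over the measured genes was -0.30, against -0.01 over all measured genes. The called gene was Lhx3, a LIM homeodomain factor needed for most anterior pituitary lineages, which 2 of its 4 measured probes called lower. One of these 2 read 9.50 to 9.69 (median 9.56) in pregnant and 9.84 to 10.14 in non-pregnant pituitaries, without overlap, a change of -0.42 ± 0.09 (SE, limma, adjusted p = 0.0220). The other fell by 0.61 ± 0.15 (SE, limma, adjusted p = 0.0448), whereas the brightest Lhx3 probe changed by -0.34 ± 0.11 (SE) without a call (limma, adjusted p = 0.120). The -0.42 call was lost without non-pregnant replicate 2 (limma, adjusted p = 0.0668) or 3 (0.0587), and the -0.61 call was lost in 9 of 12 fits that left out 1 array. Lhx3, Cga, Gata2 and Isl1 are also expressed by gonadotrophs, and of 4 gonadotroph markers 1 was called lower and 0 higher. Lhb, the luteinising hormone beta subunit, averaged 10.92 ± 0.18 in pregnant and 11.83 ± 0.12 in non-pregnant pituitaries (SD, limma, adjusted p = 0.000513). The receptor gene Gnrhr changed by -0.32 ± 0.14 (SE, limma, adjusted p = 0.260) and Fshb by 1.61 ± 0.48 (SE, limma, adjusted p = 0.0945). The summed intensity of the gonadotroph markers was 5480 to 7361 in pregnant and 7391 to 8381 in non-pregnant pituitaries, and its part in the values of the shared genes was not tested. Of the thyrotroph markers, which include Tshb, Trhr and Dio2, 6 of 7 were measured and 0 were called, with 3 positive and 3 negative changes and a median of -0.04.

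Cga, the alpha subunit that TSH shares with the gonadotrophins, averaged 15.04 ± 0.14 in pregnant and 15.25 ± 0.04 in non-pregnant pituitaries (SD, n = 8 and 4, limma, adjusted p = 0.285). Gata2, a zinc finger activator of Tshb, averaged 10.47 ± 0.24 in pregnant and 10.91 ± 0.45 in non-pregnant pituitaries (SD, limma, adjusted p = 0.209), and Isl1 changed by -0.30 ± 0.12 (SE, limma, adjusted p = 0.199). Pou1f1, the factor that thyrotrophs share with somatotrophs and lactotrophs, was not measured. Among factors that switch on Tshb in the pars tuberalis, 2 of 5 were measured and 0 were called, with Tef at 10.27 ± 0.24 in pregnant and 10.68 ± 0.19 in non-pregnant pituitaries (SD, limma, adjusted p = 0.132).

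The TRH receptor signals through Gq to phospholipase C, calcium release and protein kinase C. Of 15 listed genes of the TRH peptide and of TRH receptor signalling, 10 were measured, 1 was called lower and 0 higher. The called gene was Prkcb, the beta form of protein kinase C, at 9.00 to 9.77 (median 9.20) in pregnant pituitaries and 10.23, 9.87, 9.81 and 9.86 in non-pregnant replicates 1 to 4, without overlap. Its change was -0.69 ± 0.13 (SE, limma, adjusted p = 0.0146) for 1 of 3 measured probes, and the call was lost without non-pregnant replicate 1 (limma, adjusted p = 0.0706). The alpha form, Prkca, changed by -0.33 ± 0.13 (SE, limma, adjusted p = 0.190) and the epsilon form, Prkce, by 0.34 ± 0.14 (SE, limma, adjusted p = 0.222), so neither passed. Trh itself was detected on none of the arrays.

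Of receptors and peptides that restrain thyrotrophs, 4 of 9 were measured and 0 were called. Sstr2, a somatostatin receptor, had the largest difference, at 6.94, 6.87, 6.95, 7.01, 7.43, 7.03, 7.87 and 8.56 in pregnant replicates 1 to 8, against 8.04, 9.14, 8.02 and 8.29 in non-pregnant replicates 1 to 4. Pregnant replicate 8 alone lay inside the non-pregnant range, as it did for Trhr. The change was -1.04 ± 0.30 (SE, limma, adjusted p = 0.0792), and without that animal it was -1.22 and called (limma, adjusted p = 0.0133). Sstr5 changed by 0.34 ± 0.19 (SE, limma, adjusted p = 0.392), Nmb, the neuromedin that restrains TSH release in rats, by 0.35 ± 0.17 (SE, limma, adjusted p = 0.306), and the dopamine receptor Drd2 by -0.21 ± 0.13 (SE, limma, adjusted p = 0.436).

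Of genes that carry or inactivate thyroid hormone, 6 of 9 were measured, 2 were called higher and 0 lower, and the median change was 0.29. Sult1a1, a phenol sulfotransferase that in humans sulfates iodothyronines, read 9.34, 9.64, 9.73, 9.79, 9.57, 9.88, 9.52 and 9.69 in pregnant replicates 1 to 8, against 8.64, 9.10, 9.05 and 8.94 in non-pregnant replicates 1 to 4. The groups did not overlap, and the change was 0.71 ± 0.12 (SE, limma, adjusted p = 0.00499). Ttr, which encodes the thyroxine carrier transthyretin, read 8.93 to 9.93 (median 9.61) in pregnant and 8.77, 8.53, 8.63 and 8.15 in non-pregnant pituitaries, again without overlap. Its change of 0.96 ± 0.19 (SE, limma, adjusted p = 0.0174) was no longer called without non-pregnant replicate 3 (limma, adjusted p = 0.0560).

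Slc7a8, an amino acid exchanger that also moves thyroid hormone, changed by 0.29 ± 0.10 (SE, limma, adjusted p = 0.149). Dio3, the deiodinase that inactivates thyroid hormone, was detected on 5 of 8 pregnant and 1 of 4 non-pregnant arrays, and averaged 6.00 ± 0.23 in pregnant and 5.72 ± 0.21 in non-pregnant pituitaries (SD, limma, adjusted p = 0.306).

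Deiodinases are selenoproteins, and DIO2 is in addition marked for breakdown by ubiquitin. Of selenoprotein synthesis genes, 4 of 6 were measured and 0 called, with a median change of 0.15. Trnau1ap, which binds the selenocysteine tRNA, averaged 7.89 ± 0.10 in pregnant and 7.49 ± 0.28 in non-pregnant pituitaries (SD, limma, adjusted p = 0.0791), and Secisbp2, which reads the selenocysteine element, changed by 0.26 ± 0.12 (SE, limma, adjusted p = 0.291). All 4 genes of DIO2 turnover were measured and 0 were called, with a median change of 0.05. The ubiquitin ligase genes Wsb1 and Marchf6 changed by -0.13 ± 0.09 and 0.26 ± 0.14 (SE), and the deubiquitinase genes Usp33 and Usp20 by 0.22 ± 0.10 and -0.19 ± 0.09 (SE).

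Partners and coregulators of the thyroid hormone receptors had 10 of 15 measured and 0 called, with a median change of -0.02. Rxrg, the retinoid X receptor form enriched in thyrotrophs, averaged 9.08 ± 0.21 in pregnant and 8.86 ± 0.10 in non-pregnant pituitaries (SD, limma, adjusted p = 0.370). Of genes known to respond to thyroid hormone in some tissue, 8 of 9 were measured and 0 were called. All 8 had a negative change under the reported setting, with a median of -0.30 against -0.01 over all measured genes, and 4 had an unadjusted p under 0.05, where 8.68% of all kept probes did so in the lower direction. The count takes the brightest probe of each gene, whereas the share is over all kept probes. Because the list was chosen with earlier results of these data known, these values are a description, and a shared response was not tested. Of the 8, Cpt1a was detected on 2 of 8 pregnant and 2 of 4 non-pregnant arrays and Ppargc1a on 3 of 8 pregnant and 3 of 4 non-pregnant arrays. Klf9, a zinc finger gene that thyroid hormone induces in brain, averaged 12.13 ± 0.16 in pregnant and 12.46 ± 0.16 in non-pregnant pituitaries (SD, limma, adjusted p = 0.130), and Hr, a corepressor gene, changed by -0.43 ± 0.16 (SE, limma, adjusted p = 0.184). Gh, which thyroid hormone induces in rat pituitary cells, averaged 15.19 ± 0.09 in pregnant and 15.46 ± 0.09 in non-pregnant pituitaries (SD, limma, adjusted p = 0.107), and it was called lower with cyclic loess in place of quantile normalisation (limma, adjusted p = 0.0140).

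Of enzymes that add the sulfated glycans of pituitary glycoprotein hormones, all 4 were measured and 0 were called. Chst9 was detected on 1 of 8 pregnant and 3 of 4 non-pregnant arrays and changed by -0.58 ± 0.19 (SE, limma, adjusted p = 0.131).

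Genes best known from the thyroid gland itself were listed as a contrast, and 2 of 6 passed the filter. Tg, which encodes thyroglobulin, was detected on 5 of 8 pregnant and 0 of 4 non-pregnant arrays, so it passed the filter through the pregnant arrays alone. A probe kept in this way was selected where it is high, so its call (limma, adjusted p = 0.0311) is given as a description. Its pregnant mean was 1.20-fold above the non-pregnant mean when the latter was counted from the lowest detected signal of each array. That pregnant mean includes arrays on which Tg was not detected, so the 1.20 is not a strict lower bound. It was not called when no detection filter was applied (limma, adjusted p = 0.0714) or in 4 of 12 fits that left out 1 array. Slc5a5, the iodide transporter gene, was detected on 1 of 8 pregnant and 3 of 4 non-pregnant arrays and was not called, and Tshr and Duox2 were detected on none.

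**Figure D4:**
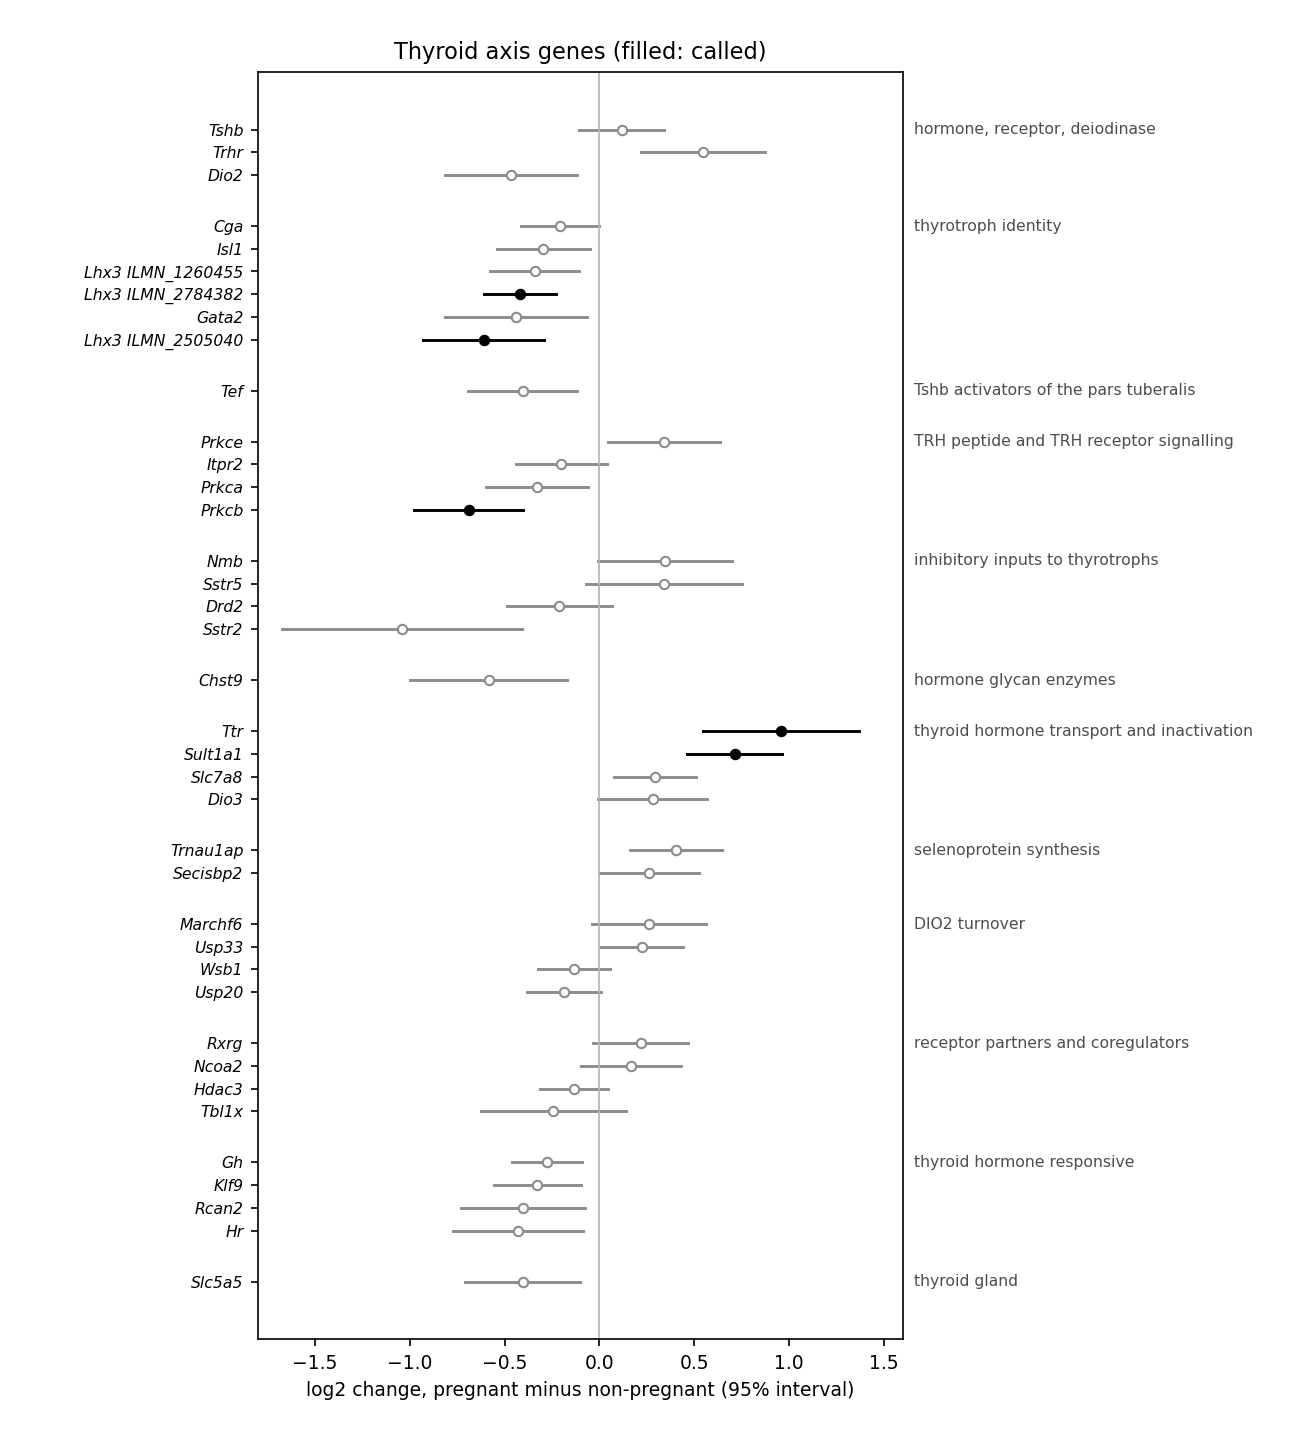
Log2 change (pregnant minus non-pregnant, with its 95% interval) of Tshb, Trhr and Dio2 and of the named thyroid axis genes by list, with filled circles where the probe was called. Sult1a1 and Ttr are called higher, and Prkcb and 2 of the 3 Lhx3 probes shown are called lower, while Tg is left out because it has only a bound in non-pregnant pituitaries.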

How the data were processed

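Each array, a MouseWG-6 v2.0 bead array, received total RNA of 1 pituitary. The authors deposited linear intensity values without background subtraction, each with a detection p-value, and a processed table made with lumi (no version was stated), whose linear intensity values served as an alternative. From the deposited non-normalised intensity values, background was corrected with normexp (limma 3.58.1, R 4.3.3, offset 16, with the negative control level estimated from detection p-values), followed by quantile normalisation and log2. Groups were compared two-sided with lmFit and eBayes, and p-values of all 18626 kept probes were adjusted together by Benjamini-Hochberg. A call needed an adjusted p under 0.05 and a log2 change of 0.32 or more in size, in at least 1 probe of the gene. The code was tested on simulated data. For a probe undetected throughout a group, the fold takes, on each array of that group, the larger of its own signal and the lowest detected signal. The mean of the other group uses all its arrays, detected or not, so the fold is not a strict bound.

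Platform symbols were matched to RefSeq by gene ID (34807 of 34885 probes). The 6 genes and the lists were chosen with earlier results of these data known. From each list, up to 4 genes with the smallest p under 0.2, by the brightest probe, were named, with any other called probe. Alternatives covered background, normalisation, filter, moderation, array weights, probe averaging, a replicate block and each array left out. The labels give no chip or batch. Each array is a separate animal, and 12 arrays limit the precision.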

Additional observations from a re-analysis of the deposited data

Results flagged for a closer look

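An array far from the rest of its group was found in 6 of 78 groups examined, where chance flags about 1 in 20. For Dio2, non-pregnant replicate 2 was highest at 9.154 log2, against 8.73 for the nearest of the other non-pregnant animals. For Dio3, non-pregnant replicate 1 was highest at 6.033, against 5.666. For Prkcb, non-pregnant replicate 1 was highest at 10.23, against 9.873. For Gh, pregnant replicate 5 was lowest at 14.98, against 15.18. For Itpr2, an inositol trisphosphate receptor gene, pregnant replicate 2 was highest at 8.592, against 8.268. For Lhx3, pregnant replicate 2 was lowest at 8.411 on the probe called with a change of -0.61, against 8.981.

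The brighter Dio1 probe, which did not pass the filter, was detected on 3 of 8 pregnant arrays and 0 of 4 non-pregnant arrays.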

How the results depend on the processing

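The changes of Tshb, Trhr and Dio2 kept their direction under every alternative run. With 1 array left out at a time they were 0.06 to 0.17, 0.48 to 0.61 and -0.52 to -0.35, and Trhr was called only without pregnant replicate 8. Over all genes, 163 were called higher and 169 lower as reported, 544 and 646 with array weights, and 59 to 405 and 48 to 469 with 1 array left out. Without non-pregnant replicate 1, 3 or 4 these counts were in turn 73 and 55, 59 and 48, and 405 and 469, and 107 were lower without pregnant replicate 7. Of listed genes, 3 were called higher and 2 lower as reported (the 3 include Tg, kept through pregnant arrays alone), 5 and 8 with array weights, and 1 to 5 and 1 to 3 with 1 array left out. The cause of these shifts was not tested.

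The labels do not say whether replicate numbers 1 to 4 pair the groups. Same-numbered deviations correlated at 0.16, 0.06, 0.01 and 0.20, and 2 of 4 non-pregnant arrays correlated best with their own number. These few weak values cannot settle whether the numbers pair the animals. With the number as a replicate block, pregnant arrays without a non-pregnant array of the same number add nothing to the change. This fit therefore compared only replicates 1 to 4 of each group, and it called 60 genes higher and 33 lower. Of the lists, Ttr and Tg were called higher and Sstr2 lower (-1.43, adjusted p = 0.0249), while Sult1a1 (0.69, 0.0542), Prkcb (-0.56, 0.103) and both Lhx3 probes (-0.45, 0.177 and -0.74, 0.0730) were not called, which leaves 2 higher and 1 lower. The changes were 0.19 for Tshb, 0.77 for Trhr and -0.66 for Dio2, none of them called.

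Within pregnant animals, leaving out 1 array gave r of 0.57 to 0.74 for Trhr with Tshb, -0.21 to 0.38 for Dio2 with Tshb and -0.51 to 0.07 for Dio2 with Trhr. The signs of the last 2 pairs turned without replicates 1 (0.07), 2 (0.03) or 5 (0.38) for Dio2 with Tshb, and without replicate 2 (0.0672) for Dio2 with Trhr. For single listed genes, 777 of the alternatives left the call as it was, 24 ended it, 15 made one and 0 turned the direction. Signal limits the comparison to 3 of the 6 genes, each seen by 1 probe.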

Other observations

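In the labels the sample numbers of pregnant replicates 1 to 4 come before, and those of replicates 5 to 8 after, the non-pregnant animals. Trhr read 8.24 to 8.71 in pregnant replicates 1 to 4 and 7.78 to 8.26 in pregnant replicates 5 to 8. Dio2 read 7.89 to 8.48 in the first 4 and 8.14 to 8.74 in the other 4. The log2 intensity of Trhr minus that of Dio2 was 0.10 to 0.72 in the first 4 and -0.74 to -0.36 in the other 4, without overlap. No batch is given in the labels, and a difference between these runs of numbers was not tested.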
